A study of Mus musculus with 12 samples.

Results

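A set of non-classical MHC class I genes of the mouse was followed through the cells of the hind paw epidermis: H2-M2, H2-M3, H2-M5, H2-T22, H2-T23, H2-Q4, H2-Q6 and H2-Q7. They were taken by symbol, as 8 of the 32285 genes counted in each library, and they were selected on earlier results of these data, which hold their levels across cell classes and their differences between diets. These levels and differences are therefore descriptions, and the adjusted p values beside them, from fits over all genes, are not independent evidence. The data are droplet libraries of single cells from 12 wild-type C57BL/6J mice, each mouse with its own library. Males and females had received a regular diet (RD, 11% fat) or a high-fat diet (HFD, 42% fat) for 10 weeks from an age of 6 to 8 weeks, which made them 16 to 18 weeks old. Each combination of sex and diet had 3 mice. The glabrous epidermis had been peeled from the dermis after an overnight incubation in Dispase and dissociated with TrypLE.

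MHC class I molecules carry a heavy chain and the light chain beta-2 microglobulin, and present peptides on the cell surface. The classical heavy chains H2-K and H2-D are highly variable between strains and are displayed by most nucleated cells. The non-classical (class Ib) heavy chains vary less, are often restricted to certain tissues, and several are read by receptors of natural killer cells and of T cells with limited diversity. H2-M3 presents peptides that start with formyl-methionine. The product of H2-T23, named Qa-1, engages the CD94/NKG2 receptors, and the product of H2-T22 is bound by a subset of gamma delta T cells. H2-Q6 and H2-Q7 encode forms of Qa-2. The mouse epidermis is home to Langerhans cells (LCs), the antigen-presenting cells of this layer, to T cells that are largely of the gamma delta lineage, and to keratinocytes that move from a basal to a cornified stage.

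Each library held 7370 to 16254 barcodes and 134449247 to 194673581 unique molecular identifiers (UMIs), each of which marks 1 captured transcript. Any 2 libraries shared between 15 and 70 barcodes, at most 0.564% of the smaller one. Cells were clustered within each sex with the class I genes left out, and clusters were named from marker lists. LC-like cells expressed all 11 LC markers, with Cd207, which encodes langerin, at 4390 CPM in males and 4867 CPM in females (CPM scales the UMIs of a gene to the total of the class in that mouse). They were kept in what follows only if their subcluster was low in keratin transcripts, which left 1075 LC-like cells in males and 1770 in females, 119 to 396 per mouse. There were 191 and 324 T cell-like cells, 19 to 92 per mouse. Keratinocyte-like cells fell into basal, proliferating, migratory (marked by Krt79 and Defb6), Krt9, suprabasal and terminally differentiated classes. The male counts carry Cell Ranger 6.1.0 in their headers and the female counts 7.2.0, so sex and counting software cannot be told apart.

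All 8 genes lie on chromosome 17 in the mouse MHC (GRCm38, GENCODE vM21), in the order H2-Q4 (chr17:35379617-35385290, plus strand), H2-Q6 (chr17:35424850-35430055, plus), H2-Q7 (chr17:35439155-35443773, plus), H2-T23 (chr17:36029773-36032855, minus), H2-T22 (chr17:36037128-36042747, minus), H2-M5 (chr17:36984061-36989537, minus), H2-M3 (chr17:37270220-37274484, plus) and H2-M2 (chr17:37480851-37483552, minus). All are annotated as protein-coding. The assay reads the 3′ end of each transcript. In the last 500 bases of their transcripts, H2-M2, H2-M3 and H2-M5 had no stretch of 91 bases in common with another gene. Such stretches made up 26.6% for H2-Q6, shared with H2-Q7, H2-Q1 and H2-D1 among others, and 25.7% for H2-T22, shared with H2-T10. They made up 12.9% for H2-T23, 9.27% for H2-Q4 and 4.55% for H2-Q7. The counts of H2-Q6 and H2-T22 are therefore the least certain of the 8. Reads of H2-Q6 in these stretches may be left unassigned or counted for another gene. No gene with the symbol H2-T10 was among those counted, so its reads had no entry of their own. Whether H2-T22 counts include them was not tested.

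The 250 bases before the RefSeq start of 4 members (GRCm38.p6, each read 5′ to 3′ on the gene's strand) are shown because these genes stand for the patterns described further on. H2-M2 was the member called in LC-like cells between diets, H2-M5 had the next largest difference, H2-T23 was found in every class, and H2-Q7 was high in T cell-like cells. Capitals mark matches, on either strand, to 4 motifs known from MHC promoters: a pair of GAAA separated by NN, the core of interferon response elements, GGGATTCC, a kB-like octamer, CCAAT, the Y box, and TGACG, the core of the X2 box. The windows were chr17:37483555-37483804 (minus) for H2-M2, chr17:36989534-36989783 (minus) for H2-M5, chr17:36032702-36032951 (minus) for H2-T23 and chr17:35438905-35439154 (plus) for H2-Q7.
H2-M2: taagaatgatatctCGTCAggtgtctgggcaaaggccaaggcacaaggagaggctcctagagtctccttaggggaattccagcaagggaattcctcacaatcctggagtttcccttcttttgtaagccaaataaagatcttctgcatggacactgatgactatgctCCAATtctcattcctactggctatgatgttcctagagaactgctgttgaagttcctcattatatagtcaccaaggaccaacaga
H2-M5: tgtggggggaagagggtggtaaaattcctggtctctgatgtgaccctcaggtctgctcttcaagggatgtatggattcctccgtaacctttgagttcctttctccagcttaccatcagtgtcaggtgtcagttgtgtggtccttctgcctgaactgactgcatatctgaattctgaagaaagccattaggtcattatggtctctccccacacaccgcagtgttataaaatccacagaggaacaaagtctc
H2-T23: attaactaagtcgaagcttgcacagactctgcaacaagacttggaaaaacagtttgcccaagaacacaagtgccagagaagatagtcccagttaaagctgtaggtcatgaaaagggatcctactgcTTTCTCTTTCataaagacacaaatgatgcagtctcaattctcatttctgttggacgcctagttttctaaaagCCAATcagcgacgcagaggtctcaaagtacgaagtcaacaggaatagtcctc
H2-Q7: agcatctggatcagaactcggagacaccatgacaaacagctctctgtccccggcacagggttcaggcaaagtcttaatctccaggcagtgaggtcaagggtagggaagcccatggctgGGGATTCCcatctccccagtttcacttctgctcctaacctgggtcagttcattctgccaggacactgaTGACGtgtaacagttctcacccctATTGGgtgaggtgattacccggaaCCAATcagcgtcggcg

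In these windows H2-T23 had the interferon element core at positions -124 to -115 relative to the RefSeq start, and H2-T22 had it at -191 to -182. Of all 32851 promoters of this length, 2.98% hold it. The H2-T23 window overlaps the GENCODE span of that gene, which reaches chr17:36032855, and both H2-T23 matches lie within that span. The kB-like octamer, held by 0.889% of promoters, was present in H2-Q6 and H2-Q7. Every member except H2-M5 held at least 1 CCAAT, which is in 33.8% of promoters. TGACG, in 17.8% of promoters, was present in H2-M2, H2-M3, H2-T22, H2-Q4 and H2-Q7. H2-M5 matched none of the 4 motifs. Only these letter patterns were searched, so other forms of the same elements would be left unmarked. A window without a match is not shown to lack the element. A match is a description of letters in the window, not of a bound site.

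H2-M2 was a transcript of the LC-like cells. Its level there was 373 ± 184 CPM in males and 382 ± 180 CPM in females (mean ± SD, n = 6 mice each), and the means of the 6 keratinocyte classes lay between 0.137 and 1.26 CPM. The lowest LC-like library, at 220.7 CPM, was above the highest library of any other class, at 178.2 CPM in T cell-like cells of 1 female. H2-M2 had at least 1 UMI in 530 of 1075 male and 1048 of 1770 female LC-like cells, and alone made up 14.3% and 19.6% of the UMIs of the 8 members, H2-K1 and H2-D1 together. The assay counts transcript ends, so these shares are of molecules and were not divided by length.

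Keratinocyte-like cells held few H2-M2 UMIs, with the highest class mean in basal cells, at 1.26 ± 0.84 CPM in males and 1.09 ± 0.53 CPM in females. The pooled basal level was 0.338% of that in LC-like cells in males and 0.281% in females. Cd207, Cd74 and H2-Aa, transcripts of LCs that can reach other droplets as free RNA, were at 0.00881% to 0.0165% of their LC-like level in the same basal cells. H2-M2 was thus a larger share of its LC-like level than those 3 genes in basal cells. In terminally differentiated cells the shares were closer, at 0.101% for H2-M2 against 0.0741% to 0.0967% in males and 0.311% against 0.236% to 0.263% in females, from 21 and 24 H2-M2 UMIs. Where the keratinocyte UMIs of H2-M2 came from was not tested. After each cell was thinned to 2000 UMIs, 0.208% of male and 0.275% of female basal cells had an H2-M2 UMI, against 37.9% and 36.8% of LC-like cells. The thinning left out 63 male and 42 female LC-like cells with fewer UMIs.

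**Figure D1:**
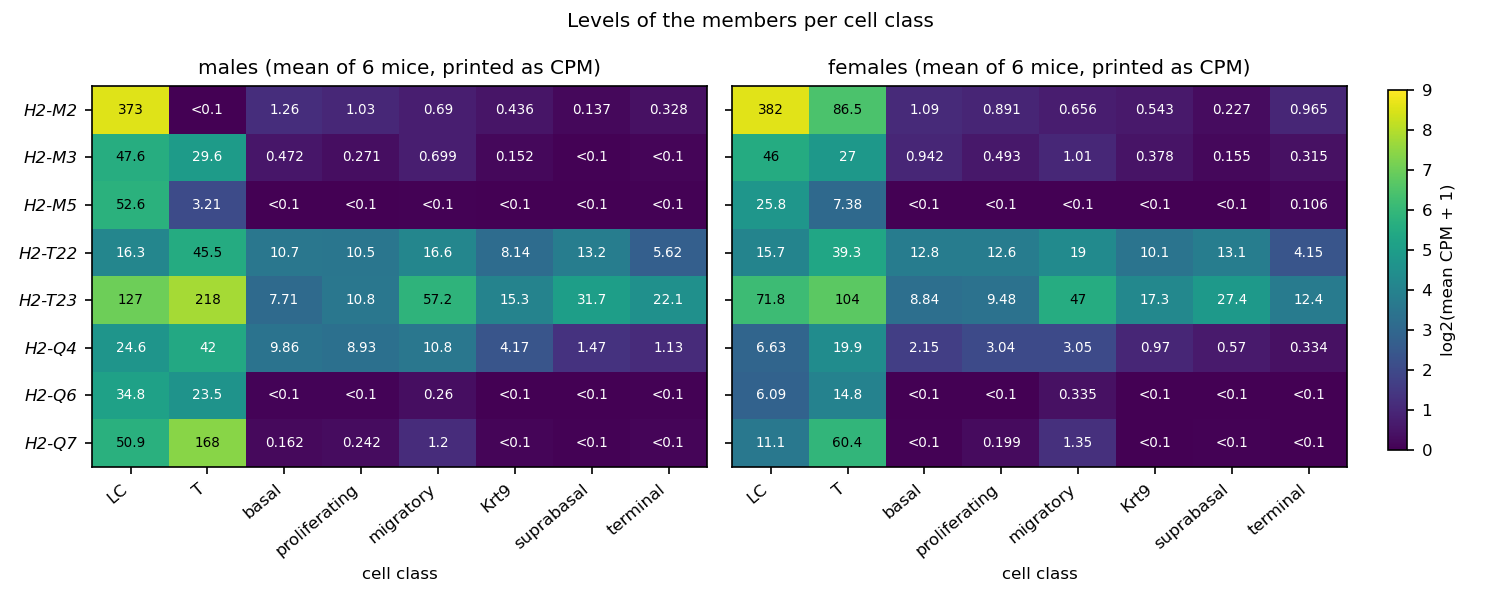
Mean level of each member (rows) in each cell class (columns), for males and females; the color is log2(mean CPM + 1) and the printed value is the mean CPM of 6 mice, with <0.1 for lower means. H2-M2 and H2-M5 are highest in the LC column, and their female T values lie in cells with LC transcripts; H2-M3, H2-Q6 and H2-Q7 are high in the LC and T columns, and H2-T22, H2-T23 and H2-Q4 are found in every column.

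H2-M3 and H2-M5 were also low in all keratinocyte classes. H2-M3 was at 47.6 ± 12.1 CPM in male and 46.0 ± 6.17 CPM in female LC-like cells, and at 29.6 ± 18.8 and 27.0 ± 13.7 CPM in T cell-like cells, which overlapped with the LC-like range. Keratinocyte class means of H2-M3 lay between 0.0450 and 1.01 CPM. H2-M5 was at 52.6 ± 20.2 CPM in male and 25.8 ± 10.17 CPM in female LC-like cells. In keratinocyte classes its means reached 0.106 CPM at most, and no H2-M5 UMI was counted in the male basal cells.

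H2-T23 and H2-T22 had class means of at least 4.15 CPM in every class. H2-T23 was highest in T cell-like cells, at 218 ± 83.6 CPM in males and 104 ± 32.6 CPM in females, followed by LC-like cells at 127 ± 27.3 and 71.8 ± 8.73 CPM, and these neighbors overlapped in both sexes. Of the keratinocyte classes the migratory one had the highest H2-T23 level, at 57.2 ± 11.6 CPM in males and 47.0 ± 3.85 CPM in females, below every LC-like library of the same sex. Next came suprabasal cells at 31.7 ± 5.61 and 27.4 ± 2.79 CPM, and basal cells were lowest at 7.71 ± 1.53 and 8.84 ± 1.31 CPM. At double clustering resolution the cells named basal were a partly different set, at 14.0 and 12.7 CPM. The lowest class was then the proliferating one, at 9.44 and 9.48 CPM, so the end of this order depended on the clustering. H2-T22 was at 45.6 ± 24.9 and 39.3 ± 11.7 CPM in T cell-like cells, where in females every library was above every LC-like library. In LC-like cells H2-T22 was at 16.3 ± 5.29 and 15.7 ± 3.88 CPM, which overlapped with migratory keratinocytes at 16.6 ± 3.05 and 19.0 ± 1.87 CPM and with suprabasal cells at 13.2 ± 1.77 and 13.1 ± 1.53 CPM. Terminally differentiated cells had the lowest H2-T22 level, at 5.62 ± 0.92 and 4.15 ± 2.17 CPM.

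The 3 Q genes differed from each other outside the immune cells. H2-Q4 had its highest mean in T cell-like cells, at 42.0 ± 34.5 CPM in males and 19.9 ± 12.28 CPM in females from 14 and 29 UMIs, which overlapped with LC-like cells at 24.6 ± 5.80 and 6.63 ± 1.30 CPM. It was also detected in all keratinocyte classes, with the highest levels in basal, proliferating and migratory cells, whose means lay between 8.93 and 10.8 CPM in males and between 2.15 and 3.05 CPM in females. In Krt9 cells it was at 4.17 and 0.97 CPM, in suprabasal cells at 1.47 and 0.57 CPM and in terminally differentiated cells at 1.13 and 0.33 CPM. H2-Q6 was at 34.8 ± 6.75 and 6.09 ± 3.06 CPM in LC-like cells and at 23.5 ± 16.59 and 14.8 ± 6.63 CPM in T cell-like cells, from 7 and 21 UMIs. The T cell-like mean was the lower one in males and the higher one in females, the libraries overlapped in both sexes, and keratinocyte class means of H2-Q6 did not exceed 0.335 CPM. H2-Q7 was at 168 ± 88.4 CPM in male and 60.4 ± 25.5 CPM in female T cell-like cells, and at 50.9 ± 12.2 and 11.1 ± 5.64 CPM in LC-like cells. In females the T cell-like and LC-like libraries did not overlap for H2-Q7, and in males they did. Its highest keratinocyte mean was in migratory cells, at 1.20 and 1.35 CPM.

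The T cell-like cells consisted of 2 subclusters in each sex, which showed H2-Q7 unequally. The larger one was led by Il22 and Icos, and in males also by Il17a, and the smaller one by Xcl1 and Trat1 in both sexes. In males H2-Q7 had 49 UMIs in the 128 cells of the larger subcluster (221 CPM) and 3 UMIs in the 63 cells of the smaller one (37.1 CPM). In females it had 85 UMIs in 267 cells (73.6 CPM) and 4 UMIs in 57 cells (29.4 CPM). H2-T23 was at 198 against 260 CPM in males and 112 against 95.7 CPM in females, in the same order. These levels were pooled over 6 mice, were singled out after they had been seen, and rest on few UMIs, so no test was made.

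H2-M2 had no UMI among the 302779 of the male T cell-like cells. Female T cell-like cells held 136 H2-M2 UMIs, and 25 of the 324 cells had at least 1. All 136, and all 12 UMIs of H2-M5, were in the 43 cells that also held a UMI of Cd207, H2-Aa, H2-Ab1 or H2-Eb1. The other 281 cells held none among 886817 UMIs, which allows an H2-M2 level of up to 3.38 CPM (3 counts, counting error only). The 11 LC markers summed to 9502 to 29410 CPM in female T cell-like cells and to 729.5 to 1443 CPM in male ones, in which Cd207 and H2-Aa were at 0. The female level of 86.5 ± 62.5 CPM for H2-M2 in T cell-like cells was hence carried by cells with LC transcripts. In the cells without them, H2-T23 was at 136 CPM and H2-Q7 at 84.6 CPM.

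Within the LC-like cells, H2-M2 was highest in a small migratory subcluster, led by Ccr7, Fscn1 and Il4i1, genes of dendritic cells that leave for the lymph node. In male RD mice, with 4 such cells each, H2-M2 was at 1624, 1127 and 1622 CPM. In male HFD mice it was at 2897 CPM in the first replicate (3 cells) and 3634 CPM in the third (1 cell), and the second had none. Female RD mice had 2122, 1255 and 2075 CPM, and female HFD mice 2630, 850 and 2957 CPM, from 4 to 10 cells each. In all 11 mice with such cells the level was above that of the cells given no state name (called remaining), which ranged from 169.6 to 586.4 CPM. A proliferating subcluster, named in males only, had pooled H2-M2 levels of 175 CPM in RD (28 cells) and 459 CPM in HFD mice (22 cells). In the migratory subcluster of females H2-K1 and H2-D1 were also higher, at 1434 and 1540 CPM against 698 and 661 CPM in the remaining cells, each pooled over mice.

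The migratory cells held a minor part of the H2-M2 signal, with 11.8% of the H2-M2 UMIs of keratin-low LC-like cells in male RD, 8.32% in male HFD, 14.7% and 10.32% in the females of these diets. A chemokine-high subcluster, named in males only and led by Klf2, Hspa1b and Jun, genes of the stress response, beside Ccl4, had H2-M2 at 213.1 to 279.5 CPM in RD and 362.0 to 613.5 CPM in HFD mice. H2-M5 was at 87.1 CPM in that subcluster, from 133 UMIs, against 33.1 CPM in the remaining male cells, from 81 UMIs. Keratin-rich LC-like cells, which were left out elsewhere, had the lowest pooled H2-M2 level within each sex and diet, at 42.5 CPM in male RD, 123 in male HFD, 104 in female RD and 169 CPM in female HFD mice. Of the 269 keratin-rich male cells, 254 were marked as doublets.

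**Figure D2:**
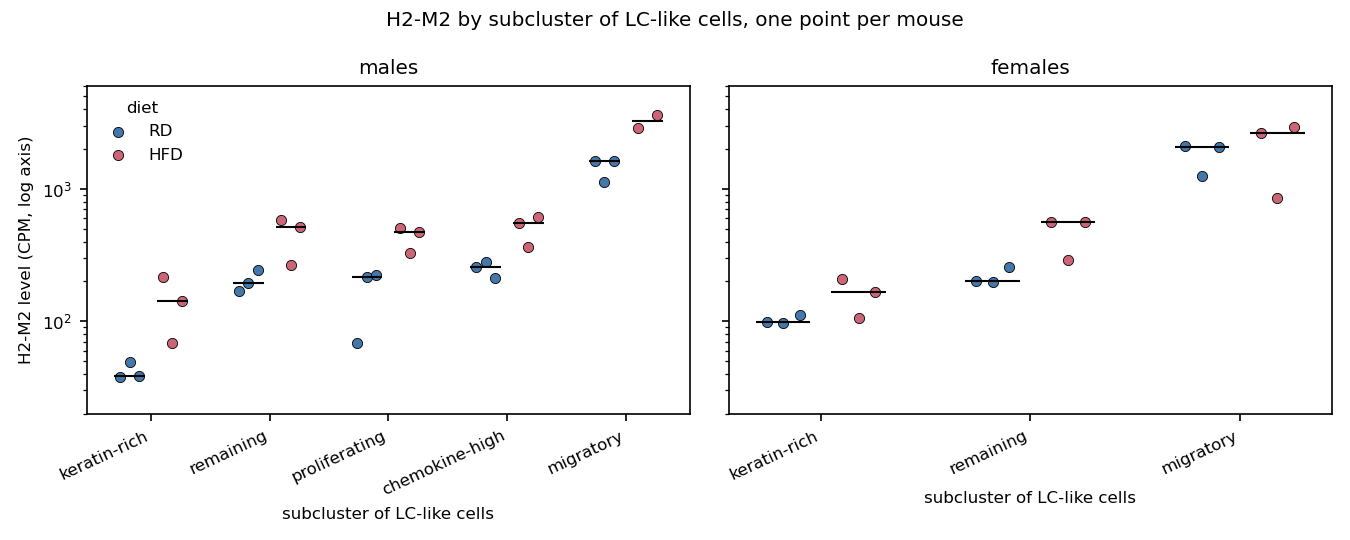
H2-M2 level (CPM, log axis) in subclusters of LC-like cells, with 1 point per mouse in RD (blue) and HFD (red) and a line at the median. The migratory subcluster is at the top in both sexes, and in the remaining subcluster each HFD mouse is above each RD mouse of the same sex.

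HFD against RD, the comparison of the study, was then made in each class within males and within females. In LC-like cells H2-M2 was at 220.7, 227.8 and 273.2 CPM in the 3 male RD mice and at 636.6, 303.1 and 576.4 CPM in the 3 male HFD mice. In females it was at 246.1, 240.4 and 274.9 CPM in RD and at 620.1, 308.1 and 603.1 CPM in HFD mice. Each HFD mouse was above each RD mouse of its sex, and the second HFD replicate was the lowest HFD mouse in both sexes. H2-M2 rose 2.09-fold in males (log2 fold change 1.06 ± 0.20 SE, adjusted p = 0.041) and 1.97-fold in females (0.98 ± 0.18, adjusted p = 0.0152, edgeR). The difference between the sexes in this change was -0.055 ± 0.306 on the log2 scale (approximate 95% interval -0.655 to 0.545, adjusted p = 0.993).

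H2-M2 was the 1 of 8 members called in males, where 0.171% of 5853 genes were called, and the 1 of 8 called in females, where 1.12% of 9085 genes were called. By DESeq2 its adjusted p was 0.0025 in males and 0.0693 in females, so the female call depended on the tool. The male call held in the leave-one-out fits only without HFD replicate 2 (adjusted p = 0.000335) and was lost in the other 5 of 6 (0.0717 to 0.158). The female call was lost without RD replicate 1 or 2 or HFD replicate 1 or 3 (0.0641 to 0.096). The diets did not overlap, so leaving out 1 mouse could hardly turn the sign of the fold change in these 12 fits. Its log2 values lay between 0.86 and 1.32 in males and between 0.82 and 1.23 in females. Without the migratory cells the log2 fold change was 1.12 ± 0.18 in males and 1.07 ± 0.18 in females (adjusted p = 0.0158 and 0.00774). When the keratin-rich cells were added back it was 1.29 ± 0.30 and 0.95 ± 0.20, and the adjusted p values were 0.7 and 0.151.

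The share of LC-like cells with an H2-M2 UMI was higher in each HFD mouse when depth was held equal. At 2000 UMIs per cell the share was 32.8%, 26.6% and 29.8% in male RD mice and 53.8%, 35.3% and 49.0% in male HFD mice. In females it was 27.2%, 24.8% and 28.2% in RD and 54.1%, 34.6% and 52.0% in HFD mice. The groups did not overlap, but these shares come from the same transcripts and mice as the levels above and are not separate evidence. The thinning left out 53 of 662 RD and 10 of 413 HFD cells in males and 18 of 906 RD and 24 of 864 HFD cells in females. Without thinning the share ran from 34.0% to 46.1% in male RD and from 51.7% to 79.8% in male HFD mice. It ran from 35.8% to 51.8% in female RD and from 62.4% to 78.1% in female HFD mice.

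**Figure D3:**
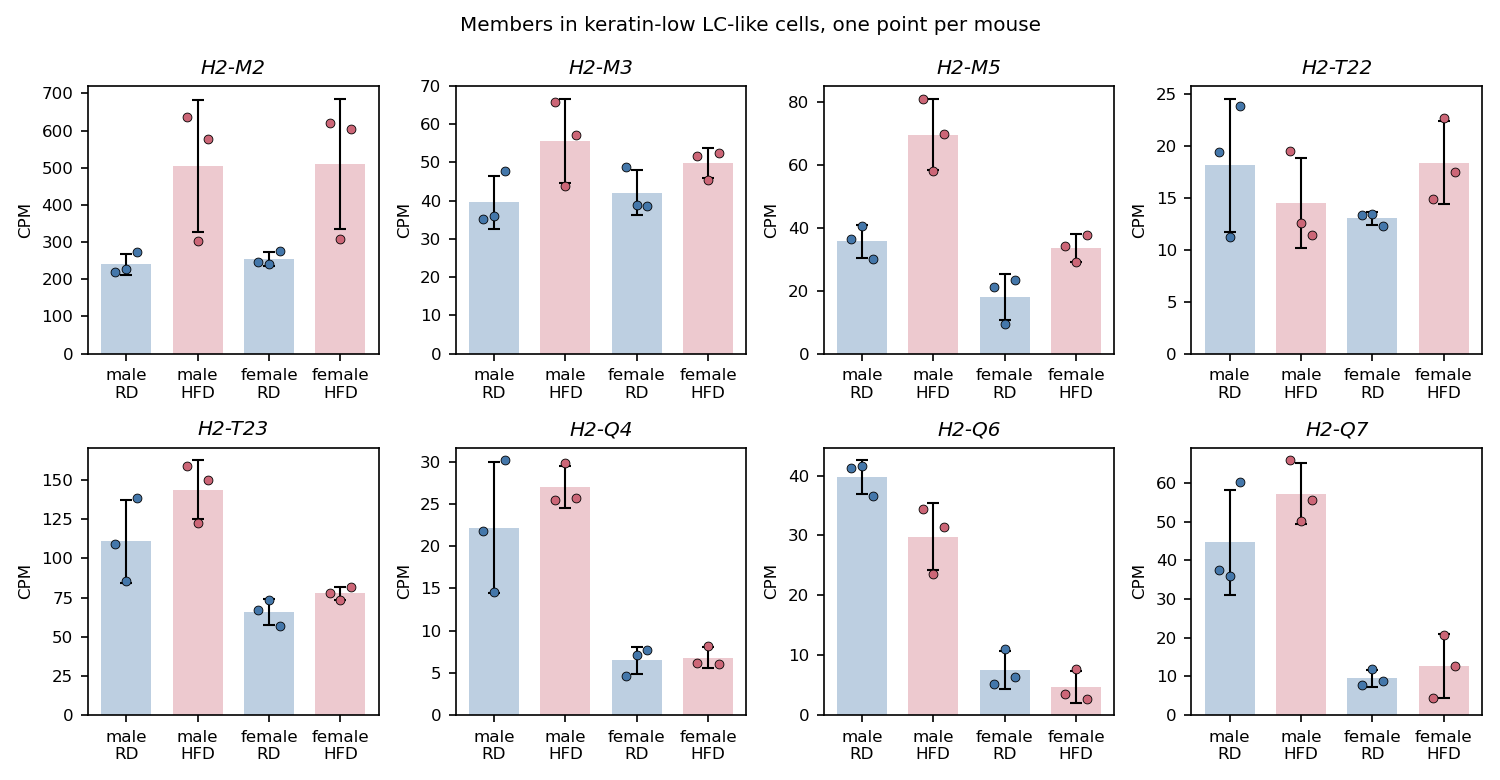
CPM of each member in keratin-low LC-like cells, with 1 point per mouse, bars at the mean of 3 mice and error bars of 1 SD. For H2-M2 and H2-M5 each HFD mouse is above each RD mouse of the same sex, and for H2-Q4, H2-Q6 and H2-Q7 the male bars are above the female bars.

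H2-M5 had the next largest difference. It was at 36.38, 40.40 and 30.18 CPM in male RD and 80.88, 58.10 and 69.91 CPM in male HFD mice. In females it was at 21.06, 9.49 and 23.37 CPM in RD and 34.18, 29.02 and 37.74 CPM in HFD mice. The groups did not overlap in either sex, and the log2 fold changes of 0.93 ± 0.21 in males and 0.79 ± 0.23 in females had adjusted p values of 0.11 and 0.125. H2-M3, with values of 35.16, 35.92 and 47.65 CPM in male RD and 65.90, 43.97 and 57.07 CPM in male HFD mice, overlapped between diets. Its log2 fold change was 0.50 ± 0.22 in males and 0.22 ± 0.15 in females (adjusted p = 0.575 and 0.566).

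For the T and Q genes no diet difference passed the test in LC-like cells. H2-T23 had log2 fold changes of 0.38 ± 0.18 in males and 0.23 ± 0.13 in females, with adjusted p values of 0.599 and 0.473. H2-T22 had a log2 fold change of -0.30 ± 0.37 in males and 0.48 ± 0.24 in females, where each HFD mouse (14.90 to 22.73 CPM) was above each RD mouse (12.32 to 13.44 CPM). The difference between these 2 effects, 0.81 ± 0.44, had an adjusted p of 0.73. H2-Q6 was lower in each male HFD mouse (23.55 to 34.45 CPM) than in each male RD mouse (36.53 to 41.53 CPM), with log2 fold changes of -0.43 ± 0.24 in males and -0.58 ± 0.43 in females (adjusted p = 0.685 and 0.618). H2-Q4 and H2-Q7 had log2 fold changes between 0.06 and 0.42 in the 2 sexes, with adjusted p values from 0.71 to 0.966. In females the H2-Q4 value turned negative without RD replicate 1 (-0.14) or HFD replicate 2 (-0.11), and the H2-Q7 value without HFD replicate 2 (-0.26). The female H2-Q6 value ran from -1.18 to -0.30 when 1 mouse at a time was left out.

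**Figure D4:**
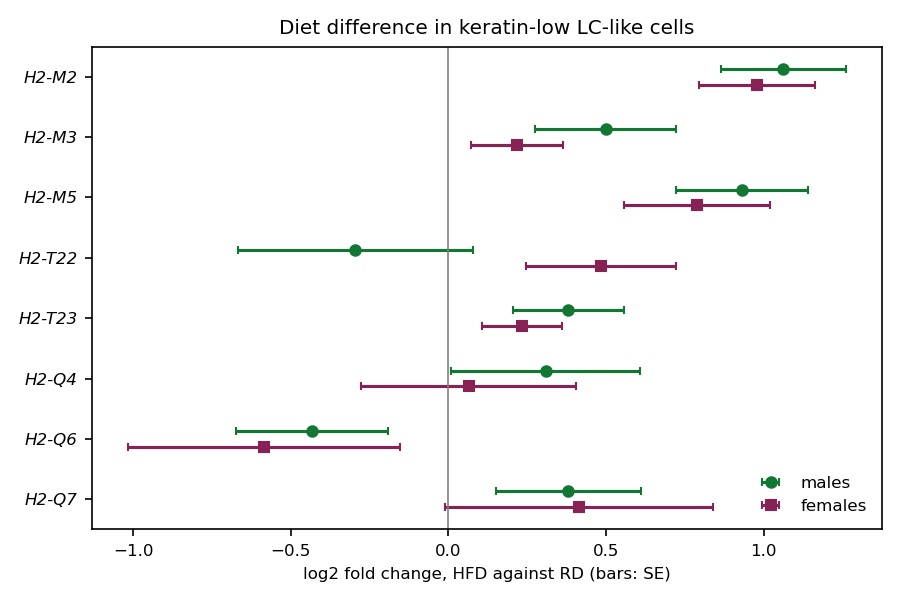
Log2 fold change of HFD against RD in keratin-low LC-like cells for each member, with bars of 1 SE, in males (circles) and females (squares). H2-M2 and H2-M5 lie farthest to the right in both sexes, and H2-Q6 lies to the left of 0 in both.

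Over the 8 members the median log2 fold change in LC-like cells was 0.38 in males and 0.32 in females, beside 0.001 and -0.004 over all genes tested. The diets did not overlap, in either direction, for 3 of 8 members in males, where this held for 13.4% of genes, and for 3 of 8 in females, where it held for 18.2%. The interaction of diet and sex was called for 0 of 8 members, and for 0% of 8335 genes in this class, by edgeR and by DESeq2. No member had an unadjusted p under 0.05 for the interaction, and 626 genes did by edgeR.

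Some sums of marker genes, named here out of a longer set of lists, did not overlap between diets in the same LC-like cells of females. Of the single genes tested there, 18.2% did not overlap in either direction. Markers of terminally differentiated keratinocytes summed to 125.9 to 229.3 CPM in RD and 72.07 to 121 CPM in HFD mice. Markers of the proliferating LC state summed to 41.12 to 47.78 CPM in RD and 56.54 to 72.07 CPM in HFD mice. Markers of proliferating keratinocytes, which hold many of the same genes, summed to 151.8 to 165.9 CPM in RD and 181.9 to 188.6 CPM in HFD mice. These sums did not overlap between diets in females and did in males, and their part in the H2-M2 result was not tested. The 11 markers of T cells summed to at most 28.5 CPM in LC-like cells of any mouse, with Trdc at 0 in all of them.

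The partners of the class I heavy chains were not called in LC-like cells of either sex. H2-K1 and H2-D1, the classical heavy chains, had HFD to RD ratios of 0.903 and 0.934 in males and 1.02 and 0.901 in females, and B2m, the light chain, had 1.19 and 1.04. The immunoproteasome genes Psmb8 and Psmb9 had ratios of 0.903 and 1.2 in males and 1.14 and 1.18 in females. Tap1, which moves peptides into the endoplasmic reticulum, had 1.08 and 0.758. The adjusted p values of these 6 genes ran from 0.464 to 0.963. Nlrc5, the transactivator of class I genes, was at 0.90 ± 1.05 CPM in males and 2.09 ± 0.51 CPM in females and was too low to be tested there.

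Lists of related genes gave the same count of 0 calls by edgeR in LC-like cells. Over all genes 0.171% of 5853 were called in males and 1.12% of 9085 in females. With so few genes tested per list, a count of 0 is near that share. Of 13 genes of class I peptide processing, 11 were tested in males and 13 in females, with median log2 fold changes of -0.15 and -0.03. Of 10 MHC class II genes, 8 and 9 were tested, with medians of 0.04 and -0.001. Of 20 interferon-stimulated genes, only 3 and 5 were tested, with medians of 0.12 and -0.06. Of 7 regulators, 2 and 5 were tested, of 15 receptor genes 3 in each sex, and of 21 other non-classical genes 2 in each sex, Hfe and Fcgrt. Without adjustment, p was under 0.05 for 2 genes of these lists in males and for 6 in females. Those in males were Hfe and Klrd1, both higher in HFD mice. Of those in females 3 were interferon-stimulated, with Ifi27 higher and Bst2 and Usp18 lower in HFD mice. The others were Irf2, which was higher, and Tapbp and Klrd1, which were lower. For Klrd1 the interaction of diet and sex was -1.14 ± 0.30 (adjusted p = 0.309, edgeR). These unadjusted counts were not compared with the share over all genes.

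In T cell-like cells 2 of 8 members were tested in each sex, and neither was called. The background there was 0.138% of 723 genes in males and 0% of 3342 genes in females, of which 188 had an unadjusted p under 0.05. DESeq2 called 0 genes in either sex. H2-Q7 had a log2 fold change of 0.88 ± 0.49 in males (adjusted p = 0.611), with 214.6, 57.74 and 87.32 CPM in RD and 283.8, 228.5 and 134.4 CPM in HFD mice, which overlapped. When 1 male at a time was left out, this value ran from 0.53 to 1.58. H2-T23 had 0.36 ± 0.42 in males and 0.42 ± 0.33 in females (adjusted p = 0.864 and 0.898). H2-M2 in female T cell-like cells was at 0, 52.48 and 61.99 CPM in RD and 178.2, 98.05 and 128.1 CPM in HFD mice (log2 fold change 1.71 ± 0.49, adjusted p = 0.573), all of it in cells with LC transcripts. The interaction was tested for 2 members and called for neither, beside 0% of 2412 genes (126 at an unadjusted p under 0.05, and 0 called by DESeq2).

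In keratinocytes no member was called between diets by edgeR in any class of either sex. The background of called genes in males was 0% in each of the 6 classes, over 9376 to 12545 genes, although 606 to 2964 genes had an unadjusted p under 0.05 and DESeq2 called 5 to 536. In females it was 1.01% in basal, 1.8% in proliferating, 0.401% in migratory, 0.88% in Krt9 and 5.78% in suprabasal cells, and 0% in terminally differentiated cells, where DESeq2 called 12 genes and 624 were under 0.05 without adjustment. Tested members numbered 2 to 5 per class and sex. Their unadjusted p was under 0.05 for H2-T23 in basal and Krt9 cells, H2-M2 in proliferating cells and 3 members in suprabasal cells of females, and for H2-T23 in terminally differentiated cells of males. The adjusted p of that male value was 0.0972, in a class whose count of genes under 0.05 lies within the male range of 606 to 2964. Over all genes of females the unadjusted p was under 0.05 for 2175 of 14106 in basal, 2209 of 13068 in Krt9, 2822 of 14352 in proliferating and 3510 of 14321 in suprabasal cells. DESeq2 called none of the members either, and 1093 genes in suprabasal cells of females.

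Those 3 suprabasal members were higher in each HFD than in each RD female without reaching the threshold. In suprabasal cells of females H2-T22 was at 11.79, 12.02 and 11.60 CPM in RD and 14.30, 13.57 and 15.30 CPM in HFD mice (log2 fold change 0.24 ± 0.08, adjusted p = 0.112). H2-T23 was at 26.75, 23.78 and 25.36 CPM in RD and 28.25, 31.71 and 28.74 CPM in HFD mice (0.17 ± 0.06, adjusted p = 0.123). H2-Q4 was at 0.419, 0.413 and 0.490 CPM in RD and 0.680, 0.747 and 0.673 CPM in HFD mice (0.60 ± 0.22, adjusted p = 0.131). For these 3 members each female HFD mouse was above each RD mouse in suprabasal and in Krt9 cells, where 19.8% and 13.6% of all genes did so. In basal cells of females the same held for H2-T22 and H2-T23, as for 1448 of 14106 genes, and in proliferating cells for H2-T22, as for 14.2% of genes. The other way, H2-Q4 was lower in each HFD male (0.340 to 0.926 CPM) than in each RD male (1.25 to 1.95 CPM) in terminally differentiated cells, as were 27.3% of genes there (log2 fold change -0.78 ± 0.42, adjusted p = 0.218, from 3 to 16 UMIs per mouse). Without HFD replicate 2, 2 of these values passed the threshold in females, H2-T22 in suprabasal cells (adjusted p = 0.0429) and H2-M2 in proliferating cells (0.0339, against 0.166 with all mice).

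H2-K1 rose in 4 keratinocyte classes of the HFD females. In basal cells it was at 78.35, 69.63 and 89.65 CPM in RD and 116.3, 112.6 and 122.1 CPM in HFD mice, without overlap (1.47-fold, log2 fold change 0.56 ± 0.09, adjusted p = 0.0277). It rose 1.31-fold in proliferating, 1.31-fold in Krt9 and 1.26-fold in suprabasal cells (adjusted p = 0.0357, 0.0282 and 0.0207). H2-D1 had ratios of 1.03 to 1.13 in these classes and was not called. Bst2, an interferon-stimulated gene that tethers virus particles, rose 1.93-fold in suprabasal cells of females (adjusted p = 0.032), as the 1 called of 6 tested genes of its list. Among males none of these genes was called in a keratinocyte class. There H2-K1, H2-D1 and B2m had log2 fold changes above 0 in each class. H2-K1 had male ratios of 1.12 in basal, 1.13 in Krt9 and 1.12 in suprabasal cells (adjusted p = 0.893, 0.865 and 0.525, edgeR). Its interaction of diet and sex was not called, at 0.42 ± 0.18 in basal cells (adjusted p = 0.48). B2m in migratory cells had ratios of 1.73 in males and 0.83 in females (adjusted p = 0.413 and 0.227). Its interaction there was -1.03 ± 0.20 (adjusted p = 0.0871).

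The interaction of diet and sex was called for 0 members in each keratinocyte class by edgeR. The background was 0.0354% of genes in basal, 0.0207% in proliferating, 0.0387% in migratory, 0.0603% in Krt9, 2.09% in suprabasal and 0.336% in terminally differentiated cells. H2-M2 in suprabasal cells had the largest value, 2.34 ± 0.66 on the log2 scale (adjusted p = 0.0741). Its level there was 0.189 ± 0.090 CPM in male RD, 0.085 ± 0.032 in male HFD, 0.135 ± 0.022 in female RD and 0.319 ± 0.135 in female HFD mice (n = 3 each), from 13 to 45 UMIs per group. Pooled over mice this was 0.0405% of the LC-like level in males and 0.0588% in females, beside 0.00992% to 0.012% and 0.0273% to 0.0293% for Cd207, Cd74 and H2-Aa. MHC class II genes, which are transcripts of LCs, had interaction values above 0 for 6 of 6 tested in this class (median 0.74), with medians of -0.35 in males and 0.40 in females. Being transcripts of the same cells, the 6 are not separate observations. Over all genes of this class, each HFD mouse was above each RD mouse for 19.8% in females and 4.43% in males. By edgeR 0 of the class II genes were called, and 0 had an unadjusted p under 0.05. The 11 LC markers summed to 9.738 to 16.87 CPM in male RD, 6.725 to 11.78 in male HFD, 13.04 to 22.25 in female RD and 12.67 to 37.31 in female HFD mice, and their part in the H2-M2 value was not tested. H2-T23 in terminally differentiated cells had -0.89 ± 0.31 (adjusted p = 0.107), with log2 fold changes of 0.49 ± 0.18 in males and -0.31 ± 0.25 in females. DESeq2 called this one interaction among the members, with an adjusted p of 0.0386, and it called 958 of the 9817 genes in this class. After removal of doublets the values were 0.21 ± 0.18 in males and -0.56 ± 0.39 in females (adjusted p = 0.525 and 0.824).

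Male and female levels are given side by side without a test, since the counting software differed between them. H2-M2, H2-M3 and H2-T22 had male to female ratios of 0.976, 1.04 and 1.04 in LC-like cells. H2-Q6 had a ratio of 5.71, H2-Q7 of 4.6, H2-Q4 of 3.71, H2-M5 of 2.04 and H2-T23 of 1.77. For H2-Q4, H2-Q6, H2-Q7 and H2-T23, 4 of 8 members, each male was above each female there, as for 9.99% of 8335 genes, whereas 31.9% of genes had each male below each female. H2-Q4 also did not overlap between the sexes in the basal, proliferating, migratory, Krt9 and suprabasal keratinocytes, with ratios of 2.58 to 4.58. Males were above females without overlap for 8.73% of genes in basal, 9.06% in proliferating, 7.42% in migratory, 7.54% in Krt9 and 9.06% in suprabasal cells. H2-T23 was above without overlap in males in terminally differentiated cells, with a ratio of 1.78, as were 11.5% of genes. H2-T22 went the other way in Krt9 cells, at 7.36 to 8.93 CPM in males and 9.38 to 11.32 CPM in females, as did 52% of genes there. Psmb8 had 482 ± 52.1 CPM in male and 207 ± 20.9 CPM in female LC-like cells. The effect of sex and that of the software cannot be told apart in these values.

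The genes whose levels across 16 class-by-sex means were most like those of H2-M2 were Cfp, Nfam1, Hapln3, Ciita and Irf8, with Pearson r of log2(CPM + 1) from 0.994 to 0.995 among 9254 genes at 20 CPM or more in at least 1 mean. Cfp encodes properdin of the complement system, and Ciita encodes the transactivator of class II genes. For H2-M3 they were Cnp and Arhgef6, for H2-M5 Apobr and Ccl4, for H2-Q6 9930111J21Rik2 and Adrb1, and for H2-Q7 Lgals3bp and Atp2a3, with r from 0.990 to 0.997. The likeness was lower for H2-T22 (Ero1l at 0.972 and Cdkn1b at 0.967), H2-T23 (Selenop at 0.969 and Itpkb at 0.94) and H2-Q4 (Arid5a at 0.975 and Prr7 at 0.956). The means of a sex share libraries and the LC-like and T cell-like columns carry most of the spread, so these values describe the pattern only.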

How the data were processed

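Single cells of glabrous hind paw epidermis were sequenced with the 10x Chromium 3′ kit (v3.1). The authors deposited, per library, a matrix of raw UMI counts for 32285 genes against mm10, made with Cell Ranger (7.2.0 per the submitters' processing notes, 6.1.0 in the headers of male files); their notes also name Seurat 5.0.0. Whether intron reads were counted is not given in the sources used here. The 8 members and the gene and marker lists were chosen with earlier results of these data known.

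Cells with 200 to 6000 genes in males or 500 to 6000 in females and at most 5% mitochondrial UMIs were kept. Each sex was clustered separately (2000 variable genes without 52 class I genes, 10 principal components, 20 neighbours, leidenalg 0.10.2, lowest resolution with at least 10 clusters) and clusters were named from markers. LC-like subclusters were keratin-low where the share of 10 keratins was under 0.1 of that in keratinocyte-like cells. Doublets were removed only in an alternative, by score, at a rate that grew with the number of barcodes.

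Counts were summed per mouse and class. HFD was tested against RD within each sex (3 against 3), and diet by sex over 12 mice, with edgeR 4.0.16 (quasi-likelihood, TMM, filterByExpr, R 4.3.3) and Benjamini-Hochberg adjustment over all genes at 0.05. DESeq2 1.42.0 was an alternative. Each mouse is a separate library, and 3 mice per group limit the precision. The SE of a log2 difference was derived from the F statistic of the fit, and its approximate 95% interval used a normal quantile. This interval includes the spread between mice but is narrower than the F test implies with so few mice. The floor of 3 counts covers counting error only. All members were named in every class. From other lists came genes past the threshold, up to 5 per list, and H2-K1, H2-D1, B2m, Tap1, Psmb8, Psmb9 and Nlrc5. Likeness was ranked over class-by-sex means, 5 genes for H2-M2 and 2 for each other member. The test script was checked on simulated counts. Motifs and shared stretches were searched in Python 3.11.15, with RefSeq promoters of GRCm38.p6, in which all 8 members matched, and GENCODE vM21 transcripts.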

Additional observations from a re-analysis of the deposited data

How the results depend on the processing

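Counts of called genes moved with the processing. In LC-like cells the log2 fold change of H2-M2 was positive in both sexes under every alternative run. Its diets did not overlap to begin with, which left the sign little room to turn. DESeq2 called 0 members and 109 genes in females (1 member and 12 genes in males), and with the keratin-rich cells included 0 members and 0 genes were called in males and 0 members and 7 genes in females. Without the filter on low counts 2 members were called in each sex, H2-M2 and H2-M5, and H2-M2 was the 1 member called in T cell-like and in proliferating cells of females. The cause of these shifts was not tested. With 3 mice per group the adjusted p of a member can depend on single libraries, as that of H2-M2 did in LC-like cells.

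Without the filter, genes called in males and females numbered 79 and 359 in LC-like, 2 and 28 in T cell-like, 160 and 487 in basal, 249 and 817 in proliferating, 114 and 572 in migratory, 113 and 701 in Krt9, 161 and 1307 in suprabasal and 1577 and 102 in terminally differentiated cells. DESeq2 called 0 in T cell-like cells of males, 12 and 287 in basal, 62 and 527 in proliferating, 16 and 184 in migratory, 5 and 254 in Krt9, 113 and 1093 in suprabasal cells, and 536 and 12 in terminally differentiated cells. For the interaction it called 67 genes in basal, 88 in proliferating, 86 in migratory, 47 in Krt9, 797 in suprabasal and 958 in terminally differentiated cells, the last with 1 member, H2-T23. Removal of doublets gave 9 genes in migratory cells of females and 486 in terminally differentiated cells of males.

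Replicate numbers were not taken as pairs, since in no class and sex was every pair's correlation over 0.1, a cut that cannot exclude pairing. The block lowered the SE of H2-M2 in LC-like cells from 0.199 to 0.16 in males and from 0.184 to 0.137 in females. With the replicate block, called genes numbered 20 and 177 in LC-like cells of males and females, with 2 members in females, H2-M2 and H2-M5. The block gave 0 and 1 in T cell-like, 4 and 27 in basal, 5 and 40 in proliferating, 1 and 454 in suprabasal cells, 4 in Krt9 cells of females and 2 in terminally differentiated cells of males. Of the alternatives chosen after seeing the data, the remaining LC-like subclusters alone gave 17 genes in males, and T cell-like cells without LC transcripts gave 0 in males and 1 in females.

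Leaving out 1 mouse at a time, called genes ranged from 1 to 15 in males and 25 to 162 in females in LC-like cells, 0 to 8 and 0 to 3 in T cell-like, 0 to 59 and 0 to 412 in basal, 0 to 28 and 1 to 570 in proliferating, 0 to 1 and 0 to 29 in migratory, 0 to 35 and 2 to 387 in Krt9, 0 to 62 and 2 to 1065 in suprabasal, and 0 to 1996 and 0 to 84 in terminally differentiated cells. Called members ranged from 0 to 1 in LC-like cells of each sex and in proliferating and suprabasal cells of females. In female LC-like cells the log2 fold change ranged from -0.14 to 0.26 for H2-Q4 and from -0.26 to 0.90 for H2-Q7.

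Of 128 class means, 117 moved by less than 1 SD at double clustering resolution and 123 after removal of doublets. The class names cover partly different cells at double resolution, and whether the moved levels come from the same kind of cell was not tested. There H2-T23 was at 14.0 and 12.7 CPM in basal cells of males and females and 53.0 in migratory cells of females, H2-T22 at 21.1 and H2-M3 at 0.832 in the latter, H2-Q4 at 7.06 and 2.42 in migratory cells and 1.78 in suprabasal cells of males, H2-Q7 at 0.375 and 0.161 in basal cells, and H2-Q6 at 0.0514 in basal cells of females. Without doublets H2-T22 was at 3.92 and 1.44 CPM and H2-Q4 at 0.398 (males) in terminally differentiated cells, and H2-T23 at 10.26 there and 8.43 in proliferating cells of females.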
